A study of Mus musculus with 75 samples.

Results

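Kmt2c-deficient and wild-type haematopoietic stem cells (HSC) from untreated mice were compared across all genes measured by RNA sequencing. The comparison takes in 8 of the 75 libraries of the study, 4 of genotype Kmt2c f/f with Vav-Cre (ko) and 4 wild type (wt), all from mice 8 weeks old. In f/f animals both Kmt2c alleles are floxed, and the Vav-Cre transgene drives Cre recombinase in blood cells, so the gene is lost in the blood system rather than in the whole animal. A group of 4 HSC libraries of genotype Kmt2c f/+ with Vav-Cre (het), in which 1 allele is floxed, was prepared alongside. The ko and het groups share Vav-Cre, whereas the wt group carries no Cre label, so the loss of Kmt2c and the presence of Cre cannot be told apart in ko against wt. The study also holds 4 ko and 4 wt HSC libraries from mice of the same age given PBS, the vehicle, for 3 days, and 4 ko and 4 wt libraries of untreated HPC, the progenitor population of the labels. The PBS comparison was fitted together with 4 ko and 3 wt HSC libraries of the same experiment. These came from mice of 8 weeks given 0.5 µg of interleukin 1 (IL1) for 3 days, and they share in its estimate of the spread. The PBS libraries are taken as HSC by their titles, although their cell type entry reads HPCs, and they held 1200 to 2760 CPM of stem cell markers in ko and 1630 to 2610 CPM in wt. The series title places this comparison in a study of Kmt2c mutation, of activated and quiescent stem cells and of an advantage after chemotherapy.

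Kmt2c, also called MLL3, is a large enzyme that puts methyl groups on lysine 4 of histone H3, a mark found at enhancers and promoters of active genes. It works in a complex of the COMPASS family together with proteins such as Wdr5, Rbbp5 and Ash2l, and its closest relative is Kmt2d. Haematopoietic stem cells rest for most of the time, divide to renew themselves, and give rise to every blood lineage through progenitors that divide often.

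Kmt2c reads dropped in every ko library. The gene lies on chromosome 5 (25271798 to 25498783, minus strand, GENCODE M21 on GRCm38) and stood at 20.3, 18.1, 21.5 and 15.4 CPM (reads per gene, scaled to library size) in the ko libraries. It stood at 45.9, 39.8, 38.3 and 43.1 CPM in the het libraries and at 69.3, 48.1, 56.1 and 68.3 CPM in the wt libraries. The 3 genotypes did not overlap. Counts per gene also take in exons outside the floxed part, and the labels do not say which exons that is. Total counts ran from 14 M to 18.7 M reads in ko libraries and from 15.4 M to 16.9 M reads in wt libraries, and 17530 to 18241 genes had a read. Among 8 genes that mark stem cells, Slamf1, Procr, Mecom, Hlf, Fgd5, Ctnnal1, Kit and Ly6a, none passed the test between ko and wt, and their summed level was 2380 to 2810 CPM in ko libraries and 2390 to 2700 CPM in wt libraries. The 4 genes Cd48, Flt3, Dntt and Il7r, which mark progenitors rather than stem cells, summed to 31.6 to 45.5 CPM in ko libraries and to 46.4 to 57.6 CPM in wt libraries. None of the 3 that were tested passed, Il7r was too low to test, and the part of such cells in the results was not tested. The sexes were not balanced. Replicates 1 and 4 of ko held 122 and 144 CPM of the female transcript Xist with at most 0.48 CPM of Y-linked genes, replicates 2 and 3 of ko held 205 and 311 CPM of Y-linked genes, and all 4 wt libraries held between 68.1 and 186 CPM of Y-linked genes, 3 of them together with Xist. Replicate 4 of each genotype carried more granulocyte and erythroid RNA than the others, up to 1430 CPM of S100a8, S100a9, Ltf and Camp together in ko, 1570 CPM in het and 1650 CPM in wt.

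The expression of 246 of 13806 genes tested differed between ko and wt HSC (edgeR quasi-likelihood test, Benjamini-Hochberg adjusted p under 0.05, here "called"), which is 1.78% of genes. Of these, 79 (0.572%) were higher and 167 (1.21%) were lower in ko. The genes that fell did so by a median log2 change of -1.46, a fold of 2.76, and the genes that rose by a median of 1.3, a fold of 2.47. A fold of 4 or more was reached by 18 of the genes that rose and by 58 of those that fell. The median change over all genes tested was 0.01 on the log2 scale. Ko and wt libraries did not overlap for 78 of the 79 higher and 164 of the 167 lower genes, against 1041 of all 13806 genes (7.54%; 3.82% higher and 3.72% lower in ko). In the fit with only ko replicates 2 and 3, the ko libraries with Y-linked reads, 26 genes were higher and 79 lower, and 94 of these 105 genes were among the 246. With the level of Y-linked genes as a covariate, 188 genes were called, and 158 of the 246 (64.2%) kept their call. Leaving out ko replicate 1 gave 151 called genes and leaving out wt replicate 4 gave 153, while 118 of the 246 genes were called in each of the 8 fits that left out 1 library. On simulated counts for this comparison (13392 genes), the test called 84% of genes lowered and 80% of genes raised 4-fold in truth, but 32% and 68% of those changed by a log2 of 1, so that the list of called genes is not complete. Of the genes called there, 6.38% were unchanged in truth. The simulated libraries held no differences in sex or in granulocyte and erythroid RNA, unlike the real ones.

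**Figure D1:**
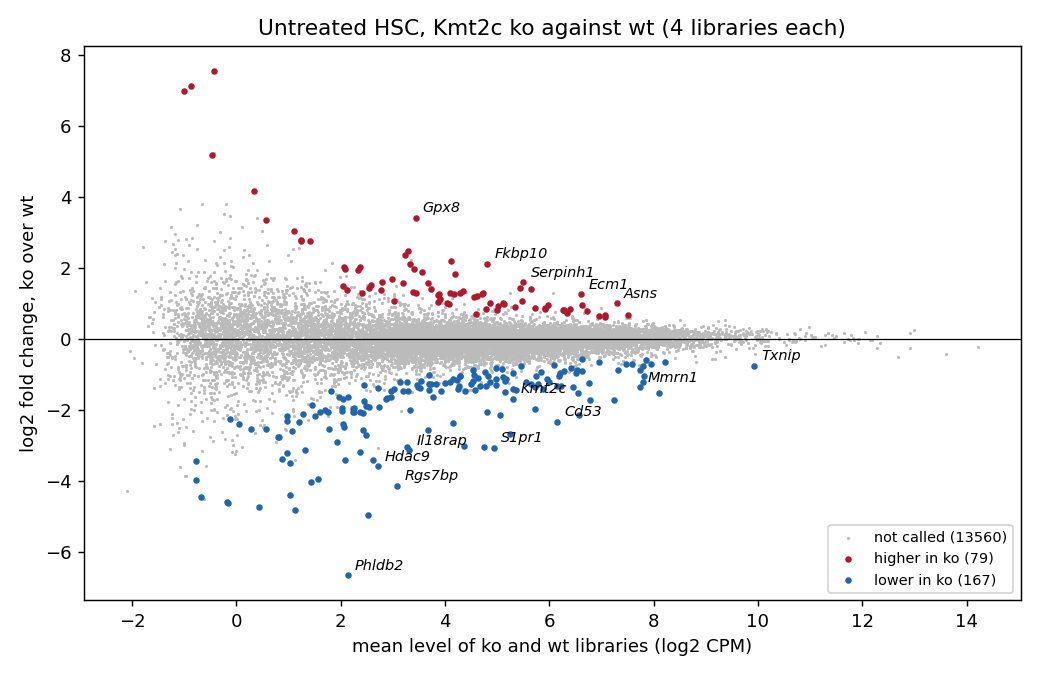
Log2 fold change of ko over wt HSC for 13806 genes, against their mean level over the 8 libraries in log2 CPM. Red points are the 79 genes called higher in ko and blue points the 167 called lower, and the largest falls lie among genes of low mean level.

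The genes that fell most had varied roles, several of them receptors. Among called protein-coding genes with no overlap of libraries and at least 5 CPM in wt, Phldb2, a protein of the cell cortex that binds phosphoinositides, fell most. It was at 0 CPM in ko replicates 1 to 3 and at 0.337 CPM in ko replicate 4, against 8.05, 8.34, 8.98 and 9.40 CPM in wt (log2 -6.64 ± 0.73, adjusted p = 6.32e-05), a fold that rests on 5 reads over the 4 ko libraries. Fam198b, a Golgi protein, had 0, 0.49, 0.914 and 0.0674 CPM in ko and 11.7, 13.3, 10.2 and 9.28 CPM in wt. Both genes were thus close to silent in ko libraries. In wt libraries they were expressed, but below the median level of all genes tested, 21.9 CPM.

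Rgs7bp, an anchor that holds RGS7-family regulators of G protein signalling at the membrane, had 0.897, 0.98, 0.633 and 1.15 CPM in ko and 18.6, 13.2, 14.4 and 17.9 CPM in wt, a 17.4-fold fall (log2 -4.12 ± 0.28, adjusted p = 1.96e-07). Fyb, an adaptor that links T-cell receptor signals to integrins and also acts in platelets, had 4.69, 7.17, 5.91 and 5.33 CPM in ko and 42.7, 47.8, 56.9 and 43.0 CPM in wt (log2 -3.04 ± 0.20, adjusted p = 1.96e-07). S1pr1, the sphingosine-1-phosphate receptor that directs the exit of blood cells from tissues, had 7.65, 5.52, 8.23 and 4.92 CPM in ko and 42.3, 52.7, 60.0 and 64.4 CPM in wt (log2 -3.06 ± 0.21, adjusted p = 1.96e-07). These 3 genes shared the smallest adjusted p of all genes tested, and every ko library stood below every wt library for each.

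The other large falls covered an epigenetic enzyme and several receptors. Hdac9, a class IIa histone deacetylase, fell 11.9-fold to 1.00 ± 0.537 CPM in ko, against 12.1 ± 3.37 CPM in wt (SD, n = 4). P2ry10, a lysophospholipid receptor of lymphocytes, averaged 1.07 ± 0.682 CPM in ko and 11.2 ± 2.14 CPM in wt, and ko replicate 1 was lowest at 0.0527 CPM. A near copy, P2ry10b, was lower too (log2 -1.92), and reads of the pair may be counted for either. Il18rap, the accessory chain of the interleukin 18 receptor, had 2.64, 3.00, 1.48 and 1.01 CPM in ko and 16.7, 17.5, 18.4 and 18.9 CPM in wt. Cd96, an adhesion receptor of T and NK cells, averaged 4.52 ± 2.58 CPM in ko and 36.6 ± 0.65 CPM in wt, an 8.05-fold fall. Clec4e, a pattern receptor of myeloid cells, averaged 2.10 ± 1.4 CPM in ko and 17.2 ± 2.08 CPM in wt, and Cnr2, the cannabinoid receptor of immune cells, 1.03 ± 0.387 CPM in ko and 9.26 ± 2.92 CPM in wt. The remaining genes of this kind were Cldn10, Adgre4, Ankrd63 and Plscr2, with falls of 16.2-, 15.3-, 10.7- and 7.35-fold. Of all the falls named here, Plscr2 alone lost its call when 1 library was left out, in 6 of 8 fits (ko replicates 1, 3 and 4 and wt replicates 2, 3 and 4, adjusted p up to 0.096).

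The rises are given for called protein-coding genes with no overlap of libraries and at least 5 CPM in ko, a limit that leaves out Sva, described with the het libraries. Gpx8, a glutathione peroxidase-like enzyme of the endoplasmic reticulum, had 23.4, 20.5, 19.3 and 15.8 CPM in ko, 10.9, 4.73, 4.97 and 5.76 CPM in het, and 1.68, 1.59, 2.23 and 1.86 CPM in wt. The rise was 10.7-fold (log2 3.42 ± 0.31, adjusted p = 7.86e-06), and every ko library stood above every het library, and every het above every wt library. Armh4, a membrane protein, rose 5.62-fold to 16.7 ± 4.8 CPM in ko, against 2.96 ± 1.3 CPM in wt. Map1b, a microtubule-associated protein best known from neurons, rose 5.2-fold to 15.8 ± 4.98 CPM, against 3.04 ± 1.87 CPM in wt. Dync1i1, an intermediate chain of the motor dynein, and Fez1, an adaptor of the motor kinesin, rose 4.09- and 3.95-fold. Ramp2, which turns the calcitonin receptor-like receptor into a receptor for adrenomedullin, had 22.2, 21.0, 19.5 and 11.8 CPM in ko and 7.70, 5.89, 2.97 and 3.53 CPM in wt. Its relative Ramp1 went the other way, with 109, 175, 147 and 113 CPM in ko and 346, 318, 324 and 248 CPM in wt (log2 -1.19 ± 0.20, adjusted p = 0.00312, and 0.0984 with only ko replicates 2 and 3). Slc17a8, a vesicular glutamate transporter, Olfr632, an olfactory receptor gene, Echdc2, an enoyl-CoA hydratase-like protein, and Flrt3, an adhesion protein, completed the list, with rises of 4.08-, 3.98-, 3.85- and 3.23-fold. The call of Slc17a8 ended without ko replicate 4 or wt replicate 2, 3 or 4 (adjusted p up to 0.0673), and that of Olfr632 without wt replicate 4 (0.0634). With all 48 libraries of the experiment in 1 fit, which share 1 estimate of the spread, 37 genes were higher and 163 lower. Of the 15 rises by fold, Gpx8, Gstm2 and Serpinh1 passed there, and the other 12 did not (adjusted p 0.0543 for Fkbp10 to 0.452 for Flrt3).

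**Figure D2:**
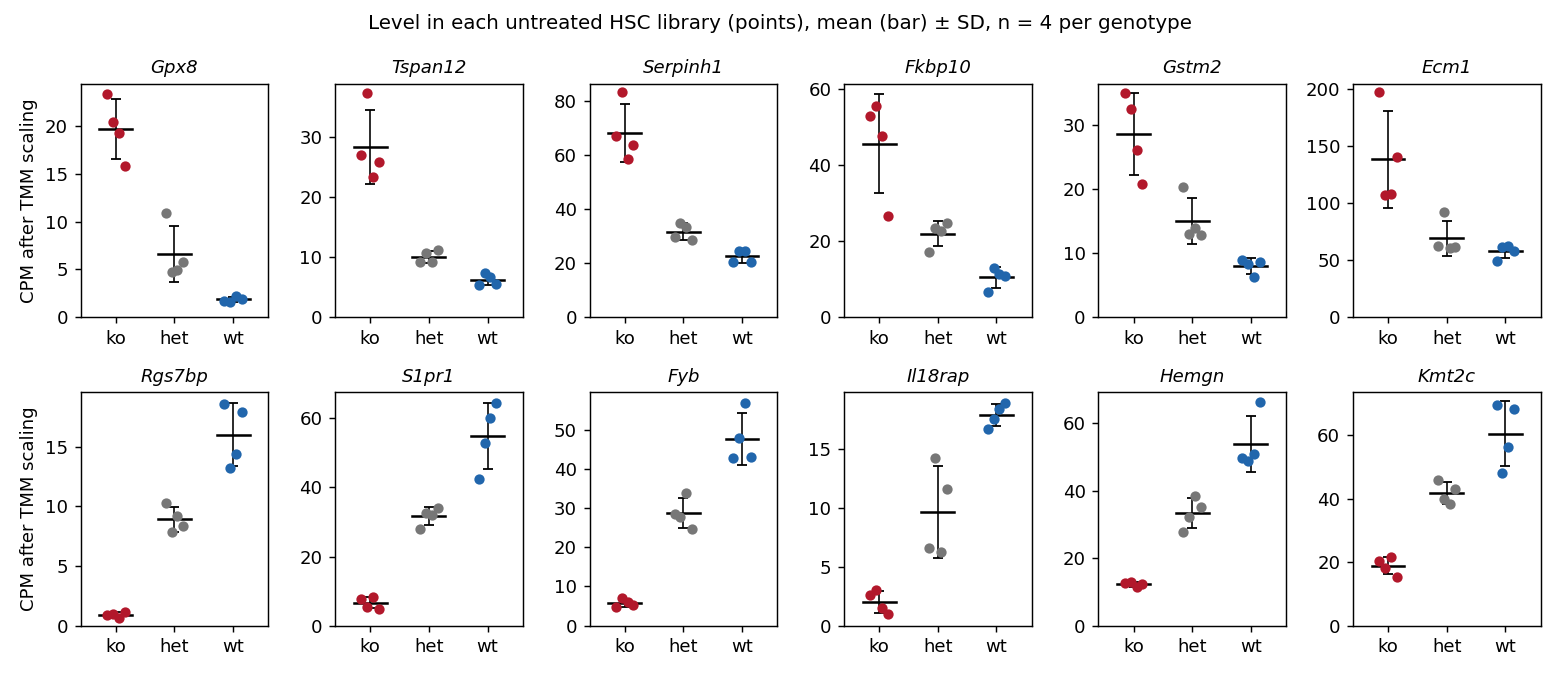
CPM after TMM scaling of 12 genes in each of the 4 ko, 4 het and 4 wt HSC libraries, with the mean and SD. In the upper row ko libraries lie highest, in the lower row lowest, and het libraries mostly lie between, as for Kmt2c with 38.3 to 45.9 CPM in het.

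Of 23 tested genes for collagen folding and modification, 4 were higher in ko and none lower. The median change was 0.26, with 17 members above 0 and 6 below. Serpinh1, the collagen chaperone HSP47, had 66.9, 83.3, 58.6 and 63.6 CPM in ko, 29.7, 34.9, 33.4 and 28.5 CPM in het, and 20.2, 24.6, 24.5 and 20.3 CPM in wt (log2 1.61 ± 0.17, adjusted p = 3.15e-05). Fkbp10, a prolyl isomerase of the endoplasmic reticulum that helps collagen fold, had 52.7, 55.5, 47.6 and 26.5 CPM in ko and 6.6, 12.9, 11.2 and 10.8 CPM in wt. Fkbp14, another member of that isomerase family, averaged 9.95 ± 1.78 CPM in ko and 3.77 ± 1.19 CPM in wt, a call that ended without wt replicate 4 (adjusted p = 0.0546). In the fit of all 48 libraries Fkbp10 and Fkbp14 had adjusted p of 0.0543 and 0.309. Gpx8 is the fourth. Of the collagens they serve, Col3a1 had no read in any ko or wt library. Col1a1 averaged 0.275 CPM in ko and 0.281 CPM in wt. Of 18 tested collagens and matrix proteins, 1 was higher and 2 were lower, with a median of -0.06. General chaperones of the same compartment did not pass the test, with none of 33 genes of the unfolded protein response called, against 1.78% of all genes. Hspa5, the main chaperone there, averaged 784 CPM in ko and 545 CPM in wt (adjusted p = 0.0956).

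Sequences around the starts of Serpinh1, Gpx8 and Fkbp14 are shown because these genes are 3 of the 4 called in the collagen folding list, each from 250 bases before to 50 bases after the start in RefSeq (GRCm38.p6), on the minus strand. The sequence of Fkbp10, the fourth, was not examined. Fkbp14 has 2 starts there, and only the one nearest to its GENCODE start was searched. Capitals mark CCACG on either strand (as CCACG or CGTGG), the letters that end the endoplasmic reticulum stress element of chaperone genes. They occurred 2 times in the window of Serpinh1 (1 before and 1 after the start), 1 time in that of Gpx8, before the start, and not in that of Fkbp14, and 32.8% of all 32851 promoters of this length held them.
Serpinh1, chr7:99353190-99353489: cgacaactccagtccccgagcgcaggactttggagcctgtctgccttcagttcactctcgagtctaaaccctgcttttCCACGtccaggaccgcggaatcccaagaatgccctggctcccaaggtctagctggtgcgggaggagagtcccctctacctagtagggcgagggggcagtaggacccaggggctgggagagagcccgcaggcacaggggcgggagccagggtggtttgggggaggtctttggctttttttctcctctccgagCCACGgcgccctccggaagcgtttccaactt
Gpx8, chr13:113046339-113046638: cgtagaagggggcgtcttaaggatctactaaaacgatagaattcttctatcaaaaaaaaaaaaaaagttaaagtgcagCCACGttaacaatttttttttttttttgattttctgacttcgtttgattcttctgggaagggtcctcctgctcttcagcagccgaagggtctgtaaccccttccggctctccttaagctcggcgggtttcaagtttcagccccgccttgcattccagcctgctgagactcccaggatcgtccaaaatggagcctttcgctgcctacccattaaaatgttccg
Fkbp14, chr6:54597295-54597594: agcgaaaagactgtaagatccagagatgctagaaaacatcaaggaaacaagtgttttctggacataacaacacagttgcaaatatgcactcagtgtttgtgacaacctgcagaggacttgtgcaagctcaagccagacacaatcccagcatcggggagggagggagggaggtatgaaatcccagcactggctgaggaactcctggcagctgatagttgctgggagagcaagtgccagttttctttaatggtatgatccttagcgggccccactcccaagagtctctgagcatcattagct

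Glutathione and redox genes contributed 4 higher and 1 lower of 38 tested, with a median of 0.13. Gstm2, a glutathione transferase, had 35.0, 32.4, 26.0 and 20.8 CPM in ko and 8.92, 8.34, 6.20 and 8.54 CPM in wt (log2 1.83 ± 0.23, adjusted p = 0.000244). Gstt1 and Gsta4, of the same enzyme class, rose 1.79-fold each, to 108 ± 14.7 and 77.7 ± 11.1 CPM in ko, against 60.3 ± 5.53 and 43.4 ± 5.51 CPM in wt, and Gsta4 was not called without wt replicate 4 (adjusted p = 0.062), nor Gstt1 in the fit of all 48 libraries (0.227). Hmox1, which degrades haem and is a target of NRF2, fell instead, with 14.6, 9.44, 9.14 and 8.09 CPM in ko and 47.1, 99.1, 54.9 and 62.1 CPM in wt. Glutathione transferases form families of near copies, whose reads may be counted for either member.

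Tetraspanins, membrane proteins that gather partners into patches, moved both ways, with 2 higher and 4 lower of 22 tested. Tspan12 had 27, 37.3, 23.3 and 25.9 CPM in ko and 5.33, 7.29, 6.63 and 5.51 CPM in wt, a 4.58-fold rise (adjusted p = 2.23e-05), and Tspan7 rose 4.31-fold. Cd53, a tetraspanin of leukocytes, had 15, 18.3, 14 and 47.6 CPM in ko and 101, 96.8, 136 and 139 CPM in wt, a 4.99-fold fall in which ko replicate 4 stood well above its group. Tspan2 fell 4.13-fold. Cd82, a tetraspanin reported to hold stem cells in quiescence, fell 1.5-fold to 186 ± 17 CPM, against 279 ± 30.9 CPM in wt, and was not called without ko replicate 3 or 4 or wt replicate 2, 3 or 4 (adjusted p up to 0.0829). Tspan12 and Tspan7 had adjusted p of 0.203 and 0.164 in the fit of all 48 libraries, and Tspan2 had 0.0702 with only ko replicates 2 and 3.

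Receptors of lysophospholipids, nucleotides and related ligands had 4 lower and no higher genes of 30 tested, with a median of -0.35. Beside P2ry10 and S1pr1, Gpr65, a proton-sensing receptor, had 8.86, 13.7, 9.77 and 11 CPM in ko and 33.3, 49.9, 58.8 and 37.4 CPM in wt. Ptger3, a receptor for prostaglandin E2, had 0.791, 0.98, 1.97 and 2.22 CPM in ko and 14.4, 8.61, 7.50 and 8.48 CPM in wt. Integrins had 4 lower genes of 17 tested and a median of -0.74, with 15 of the 17 below 0. They were the leukocyte chain Itgb2 (47.9 ± 11.4 CPM in ko, 97.6 ± 22.5 CPM in wt), the platelet chains Itga2b (39.1 ± 8.66 CPM in ko, 85.4 ± 9.63 CPM in wt) and Itgb3 (14.3 ± 5.02 CPM in ko, 32.0 ± 6.65 CPM in wt), and the collagen-binding Itga2 (0.326 ± 0.0363 CPM in ko, 1.75 ± 0.666 CPM in wt). Of these, Itga2b alone was called in each fit that left out 1 library. Itgb2 was lost without ko replicate 1, 2 or 3 or wt replicate 2, 3 or 4 (adjusted p up to 0.0958), Itgb3 without ko replicate 1, 2 or 4 or wt replicate 4 (up to 0.086), and Itga2 without ko replicate 1, 3 or 4 or wt replicate 1 or 4 (up to 0.0846). Receptors of the interleukin 1 family had 2 lower genes of 15. They were Il18rap and Il1r1, the signalling receptor for interleukin 1, which had 2.16, 3.25, 2.67 and 1.89 CPM in ko and 8.52, 7.95, 8.43 and 8.60 CPM in wt (log2 -1.75 ± 0.28, adjusted p = 0.00192, and 0.0589 with only ko replicates 2 and 3).

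Genes of megakaryocytes and platelets, a lineage whose genes stem cells share in part, had 6 lower and 2 higher members of 24 tested. The median was -0.50, and 18 of the 24 changes were below 0. Mmrn1, a protein of platelet granules, had 123, 186, 83.5 and 90.7 CPM in ko, 191, 233, 143 and 235 CPM in het, and 230, 361, 321 and 321 CPM in wt (log2 -1.35 ± 0.23, adjusted p = 0.00357). Gp9, a chain of the platelet receptor for von Willebrand factor, had 54.7, 66.1, 60.1 and 66.9 CPM in ko and 111, 129, 137 and 106 CPM in wt, and Gp5 of the same complex fell 11.3-fold to 0.325 ± 0.233 CPM, against 3.74 ± 0.937 CPM in wt. Clu, the secreted chaperone clusterin, rose 2.65-fold to 72.6 ± 21.7 CPM, against 27.4 ± 8.48 CPM in wt. With only ko replicates 2 and 3, Mmrn1, Gp9, Gp5 and Clu were not called (adjusted p = 0.0939, 0.0594, 0.0564 and 0.177), and Gp9 had 0.0874 in the fit of all 48 libraries. The 4 platelet markers Pf4, Ppbp, Gp1ba and Itga2b summed to 84.0 to 107 CPM in ko and 178 to 195 CPM in wt, and whether platelet RNA carried with the cells plays a part in the list was not tested.

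Called macrophage genes and called genes of stroma and endothelium were all lower in ko. Of 20 macrophage genes tested, 4 fell, none rose, 18 were below 0 and the median was -1.15. Hmox1 fell 6.37-fold, C1qb, a chain of complement C1q, 3.73-fold, Cd163, the haemoglobin scavenger receptor, 2.26-fold, and the receptor kinase Axl 2.26-fold. C1qb and Cd163 were not called in 7 of 8 fits that left out 1 library, all but the one without wt replicate 1 (adjusted p up to 0.207 and 0.138), and Axl not in the fit of all 48 libraries (0.108). The 10 macrophage markers summed to 63.7, 38.2, 35.9 and 51.9 CPM in ko libraries, to 30.9 to 104 CPM in het libraries and to 110 to 198 CPM in wt libraries, all 10 changes were below 0, and Timd4 was at 0 in ko replicates 1 and 2. After PBS the same sum was 34.4 to 48.6 CPM in ko and 127 to 150 CPM in wt. Fewer such cells among the sorted cells and less of these RNAs per stem cell cannot be told apart. Of 12 stroma and endothelium genes, 3 fell: Bgn, a small matrix proteoglycan (52.8, 41.5, 62.4 and 48.3 CPM in ko, 168, 199, 134 and 173 CPM in wt, adjusted p = 7.86e-06), Kdr, the receptor VEGFR2, and Pecam1, an adhesion protein. Stromal cells themselves left few reads, with Col3a1 and Dcn at 0 in all ko libraries and Col3a1 at 0 in all wt libraries. Kdr was lost without ko replicate 1, 2 or 4 or wt replicate 1 or 4 (adjusted p up to 0.0947) and Pecam1 without ko replicate 1, 3 or 4 or wt replicate 2, 3 or 4 (up to 0.136).

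Erythroid, T and NK, granulocyte and mast cell lists held 1 or 2 calls each, and the B-lineage list held none. Hemgn, a nuclear protein of stem and erythroid cells, had 12.7, 12.9, 11.3 and 12.2 CPM in ko, 27.7, 32.1, 38.4 and 35.1 CPM in het, and 49.5, 48.8, 50.8 and 66.3 CPM in wt. It was the only 1 of 20 erythroid genes called (log2 -2.13 ± 0.17, adjusted p = 2e-06), while the globin Hbb-bs ranged from 3.51 to 149 CPM over ko libraries. Gata3, a transcription factor of T cells and stem cells, had 54.5, 68.2, 53.9 and 41.2 CPM in ko and 104, 121, 90.3 and 87.9 CPM in wt (adjusted p = 0.00728, and 0.17 in the fit of all 48 libraries), and with Nkg7 made up the 2 of 8 T and NK genes called, both lower. The T-cell marker Cd3e was at 0 in replicates 1 to 3 of ko and of wt. Of 24 granulocyte and monocyte genes 1 fell, Ms4a6c, a member of a family of near copies. Of 8 mast cell and basophil genes 1 fell, the adaptor Clnk, whose ko and wt libraries overlapped. Of 6 B-lineage genes none was called. Nkg7 was lost without ko replicate 1 or 3 or any wt library (adjusted p up to 0.157), Ms4a6c without ko replicate 1 or wt replicate 4 (up to 0.0677), and Clnk without ko replicate 1, 2 or 3 or wt replicate 2, 3 or 4 (up to 0.151).

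Transcription factors of stem cells held no call, and their surface and quiescence genes held 2 calls each (8.7% and 8.33%, against 1.78% of all genes). None of 24 transcription factors of stem cells passed, with a median of -0.05. Mecom, a zinc finger factor needed for stem cell maintenance, averaged 197 CPM in ko and 159 CPM in wt (log2 0.31 ± 0.13, adjusted p = 0.404). Of 23 surface genes of stem cells 2 fell, Itgb3 and Abcb1a, the drug efflux pump, at 0.659 ± 0.287 CPM in ko and 3.24 ± 1.18 CPM in wt. Abcb1a was not called in the fit of all 48 libraries, with the Y-linked covariate or with only ko replicates 2 and 3 (adjusted p up to 0.146). Of 24 genes linked to quiescence, Txnip, an inhibitor of thioredoxin, fell and Nr4a1, an orphan nuclear receptor, rose. Txnip was one of the most abundant genes called, with 665, 678, 810 and 747 CPM in ko and 1220, 1350, 1070 and 1220 CPM in wt (log2 -0.75 ± 0.13, adjusted p = 0.00434, and 0.0913 with only ko replicates 2 and 3). Nr4a1 averaged 20.4 ± 5.92 CPM in ko and 9.35 ± 1.96 CPM in wt, and its call ended in all leave-one-out fits but the one without ko replicate 2 (adjusted p up to 0.125).

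The cell cycle lists held 1 call, with 1.78% of all genes called. Of 20 cyclins, CDKs and inhibitors, 1 was called, the CDK4 and CDK6 inhibitor Cdkn2c, with 17.1, 22.5, 21.6 and 17.7 CPM in ko, 17.2, 12.3, 16.7 and 13 CPM in het, and 10.1, 9.74, 8.18 and 9.71 CPM in wt (log2 1.06 ± 0.20, adjusted p = 0.00906). None of 32 DNA replication genes was called, though 30 were below 0 with a median of -0.16, and Cdt1, which licenses origins, averaged 21.1 CPM in ko and 36.9 CPM in wt (adjusted p = 0.351). None of 30 mitosis genes was called, with a median of -0.04.

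Interferon, NF-kB, cytokine and MHC class II lists held no call. With 1.78% of all genes called, lists of this size without a call are not set apart by it. None of 37 interferon-stimulated genes, 21 NF-kB genes, 26 cytokine receptors or 16 chemokines and chemokine receptors passed, with medians of 0.02, -0.03, -0.19 and -0.28. None of 14 MHC class II genes passed, with 12 below 0 and a median of -0.46, and the closest was H2-Ob, a modulator of peptide loading, at 20.6 CPM in ko and 38.9 CPM in wt (adjusted p = 0.056).

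The metabolic lists below held 0% to 6.25% called genes each, against 1.78% of all genes tested, so their few calls do not set them apart. Of 27 glycolysis genes 1 was called, the aldolase Aldoc, at 166 ± 35.1 CPM in ko and 103 ± 15.4 CPM in wt. None of 47 nuclear genes of oxidative phosphorylation was called, with 35 above 0 and a median of 0.12, none of 25 genes of the tricarboxylic acid cycle (0.11), and none of 28 genes of fatty acid oxidation (0.17, with 24 above 0). Within the last list Cpt1c, a carnitine palmitoyltransferase best known from brain, missed the threshold with 21.3, 19.8, 6.68 and 19.5 CPM in ko and 2.61, 4.9, 2.11 and 4.89 CPM in wt (log2 2.22 ± 0.55, adjusted p = 0.0518). It was called in 5 of 17 alternatives, among them the fit without ko replicate 3, its lowest ko library. Asns, asparagine synthetase and a target of the transcription factor ATF4, was the 1 called of 35 genes of amino acid synthesis. It had 239, 189, 183 and 227 CPM in ko, 154, 147, 157 and 138 CPM in het, and 65.9, 128, 132 and 91.2 CPM in wt (log2 1.01 ± 0.18, adjusted p = 0.00614, and 0.169 with only ko replicates 2 and 3). Among 32 genes of cholesterol synthesis and SREBP targets, the desaturase Scd1 rose 2.97-fold and the desaturase Fads1 fell 1.49-fold, with a median of 0.26. None of 59 cytosolic ribosomal protein genes, 39 genes of ribosome biogenesis, 24 p53 targets or 39 DNA repair genes was called. The ribosomal protein gene Rpl5 averaged 3.46 CPM in ko and 2.36 CPM in wt, against 1380 and 1270 CPM in HSC after PBS. Rpsa averaged 23.8 CPM in ko and 31.6 CPM in wt, against 5080 and 4410 CPM after PBS. For such genes few reads were counted in the untreated libraries, and the reason was not tested. Aldoc was lost without any library but ko replicate 3 (adjusted p up to 0.191), Scd1 without wt replicate 3 (0.0511), and Fads1 without ko replicate 1 or 4 or wt replicate 1, 2 or 4 (up to 0.0858).

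Imprinted genes, of which 1 parental copy is silent, had 3 lower members of 21. Dlk1, a Notch-like growth regulator, and the long non-coding RNA Rian lie in the same imprinted cluster on chromosome 12 and fell 26.3- and 20.9-fold. Rian had 0.475, 0, 0.141 and 0.0674 CPM in ko, 0.578, 1.83, 0.589 and 0.712 CPM in het, and 3.48, 5.63, 2.91 and 3.53 CPM in wt (adjusted p = 0.00291). Dlk1 had at most 0.158 CPM in ko and 4.06, 3.25, 1.86 and 1.3 CPM in wt (adjusted p = 0.0104). These folds rest on 6 reads of Dlk1 and 12 of Rian over the 4 ko libraries, and Dlk1 had an adjusted p of 0.129 with only ko replicates 2 and 3. Meg3 of the same cluster, named after its values were seen, averaged 0.548 CPM in ko and 3.31 CPM in wt and did not pass (log2 -2.55 ± 0.65, adjusted p = 0.055). Igf2r, the clearance receptor for IGF2 on chromosome 17, fell 2.52-fold.

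Chromatin genes held 2 calls. Kmt2c was the 1 called of 17 H3K4 methyltransferases and COMPASS partners, Hdac9 the 1 of 16 histone deacetylases, and none of 16 histone demethylases and H3K27 genes was called. Over all 60 lists, 35 held a called gene, 20 of them only lower ones and 6 only higher ones. The 1331 listed genes tested held 69 called genes (5.18%, against 1.78% of all genes), and 177 called genes were in no list. The lists were chosen with earlier results of these data known, so the larger share is no result about the listed classes. Nor are the 25 lists without a call a result about their classes, as only 1.78% of all genes were called.

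**Figure D3:**
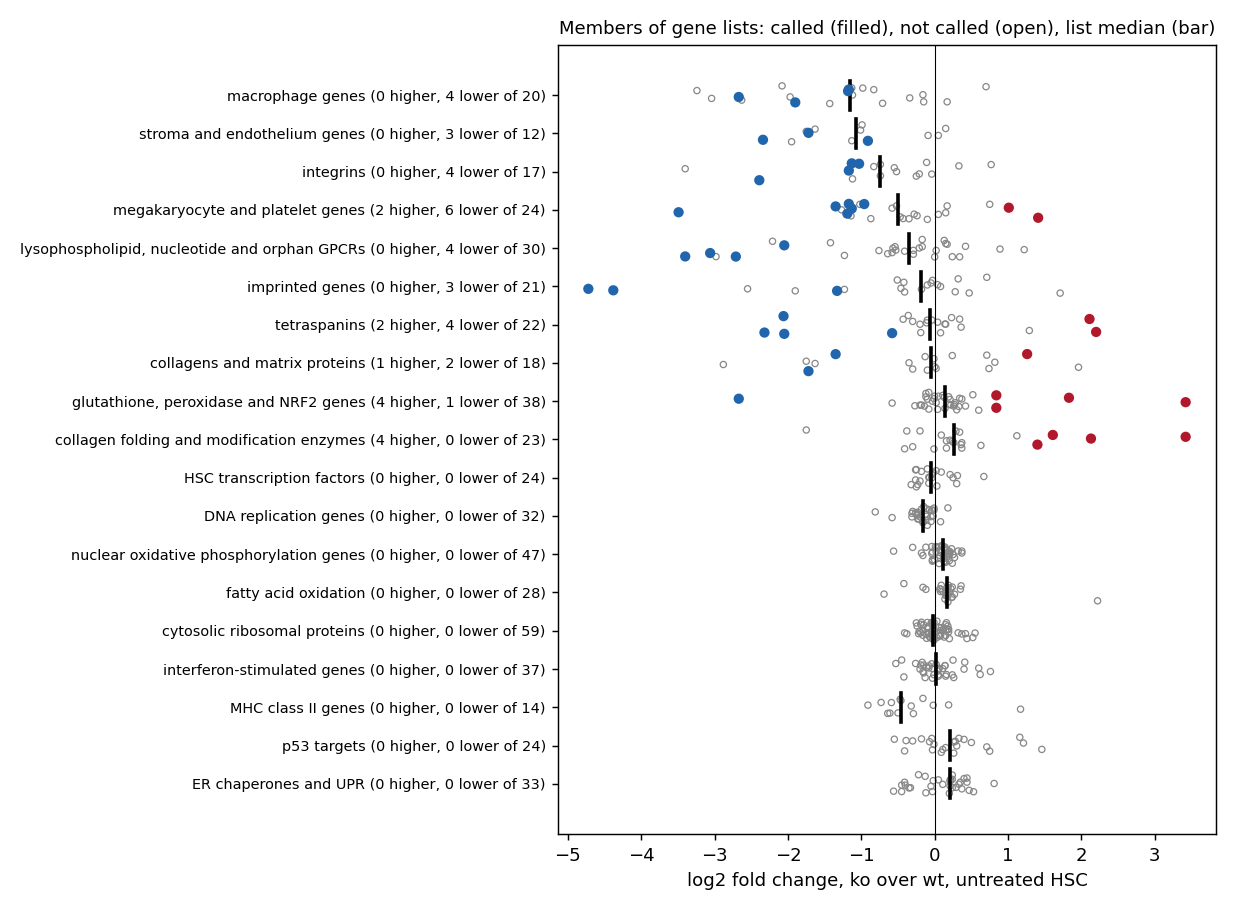
Log2 fold change of ko over wt HSC for the members of 19 gene lists, with called members filled, other members open and the list median as a bar. Macrophage genes (median -1.15) and integrins (-0.74) lie to the left, collagen folding genes (0.26) hold 4 called genes to the right, and the stem cell, replication and ribosomal lists lie close to 0.

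By gene class, 240 of the 246 called genes were protein coding (78 higher and 162 lower of 12307, 1.95%), and 6 of 863 long non-coding RNA genes were called (0.695%). The other called long non-coding RNAs of the named set were AI504432, at 1.91 ± 0.859 CPM in ko and 7.53 ± 1.85 CPM in wt, and Snhg18, at 8.92 ± 4.02 CPM in ko and 3.11 ± 0.201 CPM in wt, and Snhg18 was lost without ko replicate 2 or 3 or any wt library (adjusted p up to 0.113). The genes lower in ko spanned a median of 34.2 kb on the genome, those higher 20.6 kb and all tested genes 21.1 kb. Of the 4578 genes of longest span, 36.4 kb or more, 81 were lower and 30 higher (2.42% called), and of the 4578 shortest, 44 and 26 (1.53%). Every autosome held called genes, from 1.25% of tested genes on chromosome 4 to 3.19% on chromosome 13. Within 10 Mb of Kmt2c, 3 of 142 genes were called (2.11%), namely Cd36, Fgl2 and Fndc4, named after their values were seen. The share of reads of whole classes did not pass exact two-sided permutation tests of 4 against 4, whose smallest possible p is 0.0286. Mitochondrial transcripts took 1.84 ± 0.44% of reads in ko and 2.04 ± 0.55% in wt (exact p = 0.6, adjusted over 5 classes 0.75), and long non-coding RNA genes 2.56 ± 0.515% in ko and 2.85 ± 0.748% in wt (p = 0.514, adjusted 0.75). Ribosomal protein genes took 4.92 ± 0.417% in ko and 4.89 ± 0.198% in wt, although some of them, such as Rpl5, had few reads in this experiment. Promoter sequences were at hand for 189 of the 240 called protein-coding genes (78.8%), under the 80% set for such a check, so no comparison of promoter composition between called and other genes was made.

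Most changes had the same direction in other libraries. In HSC of mice given PBS, from the second experiment, 132 of 16538 genes were called between ko and wt (0.798%), 39 higher (0.236%) and 93 lower (0.562%). These libraries share none with the untreated ones. The sexes were unbalanced here too, with 0.131, 140, 0.0663 and 0 CPM of Y-linked genes in ko. The wt libraries held 0.0368, 223, 199 and 88.9 CPM of them. With a Y-linked covariate in the fit, 61 genes were called after PBS. The part of sex in the shared direction was not tested. All 246 genes called in untreated HSC were tested there, and 78 of 79 higher and 165 of 167 lower ones changed in the same direction, against 7659 of 13466 genes (56.9%) not called. After PBS 13 of the 79 and 68 of the 167 were called in the same direction, and none in the opposite one. The median log2 change of the higher genes was 1.3 untreated and 1.07 after PBS, and that of the lower genes -1.46 untreated and -1.45 after PBS. Set against the calls after PBS, 33.3% of the 39 higher and 73.1% of the 93 lower ones were also called in untreated HSC.

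Several leading genes were called again. After PBS, Gpx8 averaged 10.8 ± 5.5 CPM in ko and 0.682 ± 0.273 CPM in wt (log2 3.99 ± 0.64, adjusted p = 0.00516), Serpinh1 44.9 ± 9.67 CPM in ko and 14.2 ± 2.61 CPM in wt (1.66 ± 0.29, adjusted p = 0.00922), and Fyb 8.37 ± 1.17 CPM in ko and 43.8 ± 7.26 CPM in wt (-2.39 ± 0.25, adjusted p = 0.000279). Il18rap averaged 1.17 ± 0.599 CPM in ko and 19.9 ± 4.45 CPM in wt, and S1pr1 4.27 ± 2.17 CPM in ko and 44.1 ± 6.6 CPM in wt. Other genes were close in level between the genotypes there. Txnip averaged 679 ± 277 CPM in ko and 789 ± 189 CPM in wt (-0.22 ± 0.30, adjusted p = 0.891), Nr4a1 8.56 ± 3.24 CPM in ko and 8.38 ± 4.61 CPM in wt (0.03 ± 0.39, adjusted p = 0.988), and Fut8, a fucosyltransferase and the most abundant gene called higher in untreated HSC, 151 ± 50.7 CPM in ko and 147 ± 57.4 CPM in wt. The untreated call of Fut8 ended without ko replicate 2, 3 or 4 or wt replicate 1, 2 or 3 (adjusted p up to 0.0874). Cells after PBS came from other mice and another run of the experiment, so vehicle and experiment cannot be told apart. Leaving out 1 of the 8 PBS libraries gave 42 to 91 called genes, with 91 without ko replicate 4 and 42 to 74 without any other. Leaving the first interleukin 1 library of wt HSC out of the fit gave 217.

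**Figure D4:**
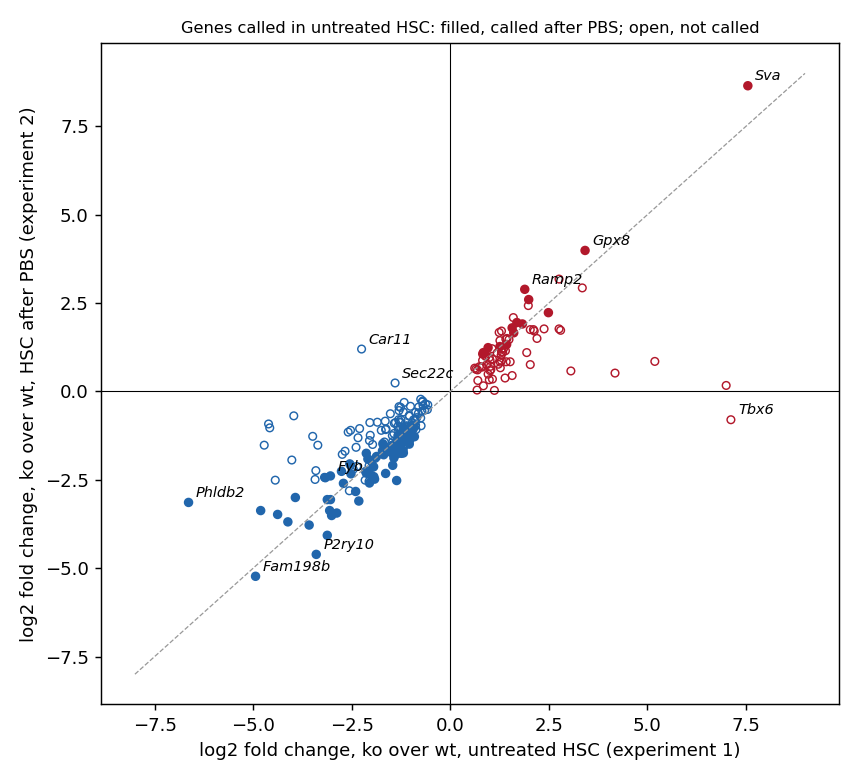
Log2 fold change of ko over wt for the 246 genes called in untreated HSC (x axis) and for the same genes in HSC after PBS (y axis), with genes also called after PBS filled. The dashed line marks equal change, and 3 genes, Tbx6, Sec22c and Car11, lie on the opposite side of 0.

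For most called genes the mean of the het libraries stood between those of the other genotypes. The mean of the het group lay between the means of ko and wt for 76 of the 79 higher and 161 of the 167 lower genes. For the lower genes the median log2 change was -1.04 for ko against het and -0.49 for het against wt, and for the higher genes 0.70 and 0.66. The genes were picked for a wide gap between ko and wt in these same libraries, which by itself favours a het mean in between. The share over all genes was not computed, so these counts and medians are no test of a graded effect. Both comparisons with het share libraries with ko against wt, so their calls are not independent of it. Ko against het, where both groups carry Vav-Cre, called 45 genes (0.326%), 8 higher (0.0579%) and 37 lower (0.268%). Without het replicate 3, 29 were called. Rgs7bp changed by -3.27 for ko against het and -0.85 for het against wt, S1pr1 by -2.27 and -0.79, Fyb by -2.31 and -0.73, Serpinh1 by 1.11 and 0.50, Fkbp10 by 1.06 and 1.08, and Tspan7 by 0.39 and 1.71. Het against wt called 1 gene (0.00724%) by edgeR, with 758 at an unadjusted p under 0.05 and 17 called by DESeq2. It was Sva, the seminal vesicle antigen gene on chromosome 6, named after its values were seen, with 1.42, 0.919, 1.41 and 2.16 CPM in ko, 2.24, 1.69, 1.70 and 1.54 CPM in het and no read in any wt library. After PBS it again had no read in wt, and 1.66 ± 0.0961 CPM in ko. Without het replicate 2 or 4, 4 genes were called in het against wt.

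Part of the change differed in HPC. Untreated ko and wt HPC differed in 146 of 13276 genes (1.1%), 33 higher (0.249%) and 113 lower (0.851%). Without ko replicate 3 or 4 or any wt library of HPC, 80 to 94 genes were called. Of the genes called in HSC and tested in HPC, 53 of 57 higher and 139 of 152 lower ones had the same sign in HPC. Among genes not called in HSC, 6699 of 12621 (53.1%) did. In HPC 11 of the 57 and 42 of the 152 were called in the same direction. A further 37 HSC genes did not pass the filter on low counts there. In the test of the difference, HPC minus HSC effect over 15110 genes, 35 genes were called (0.232%), 24 with a higher (0.159%) and 11 with a lower (0.0728%) effect in HPC. Of the 246 genes called in HSC, 20 had such a difference, and 17 of them had fallen in HSC with a smaller fall or none in HPC.

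Fyb changed by -3.04 ± 0.20 in HSC and -0.99 in HPC (difference 2.05, adjusted p = 1.46e-05), and Il18rap by -3.12 ± 0.35 in HSC and -0.85 in HPC (difference 2.26, adjusted p = 0.0114). Tmem150b, Kcna3, a potassium channel of lymphocytes, and Rnf150 also fell further in HSC, with differences of 2.26, 2.42 and 3.27. Their HSC changes rest on 28, 37 and 9 reads over the ko HSC libraries. Mmrn1 went the other way, with -1.35 ± 0.23 in HSC and -5.23 in HPC (difference -3.88, adjusted p = 1.46e-05), and averaged 0.877 CPM in ko HPC and 33.4 CPM in wt HPC. Art4, a blood group ADP-ribosyltransferase, changed by 0.61 ± 0.17 in HSC, which did not pass, and by -2.39 in HPC (difference -3, adjusted p = 7.36e-06). Ccr9, a chemokine receptor, Fam110c and Sytl4 had differences of -4.97, -3.33 and -2.33 and no call in HSC. Ccr9 was near the floor in HSC, with 48 reads over the ko and 10 over the wt libraries (0.729 and 0.162 CPM). Its HSC change of 2.15 ± 0.88, part of that difference, is thus uncertain, and was -1.67 ± 1.15 after PBS. In HPC it averaged 7.5 CPM in ko and 51.7 CPM in wt. Clu, higher in ko HSC, had a log2 change of -0.71 in HPC (difference -2.12, adjusted p = 0.000527).

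**Figure D5:**
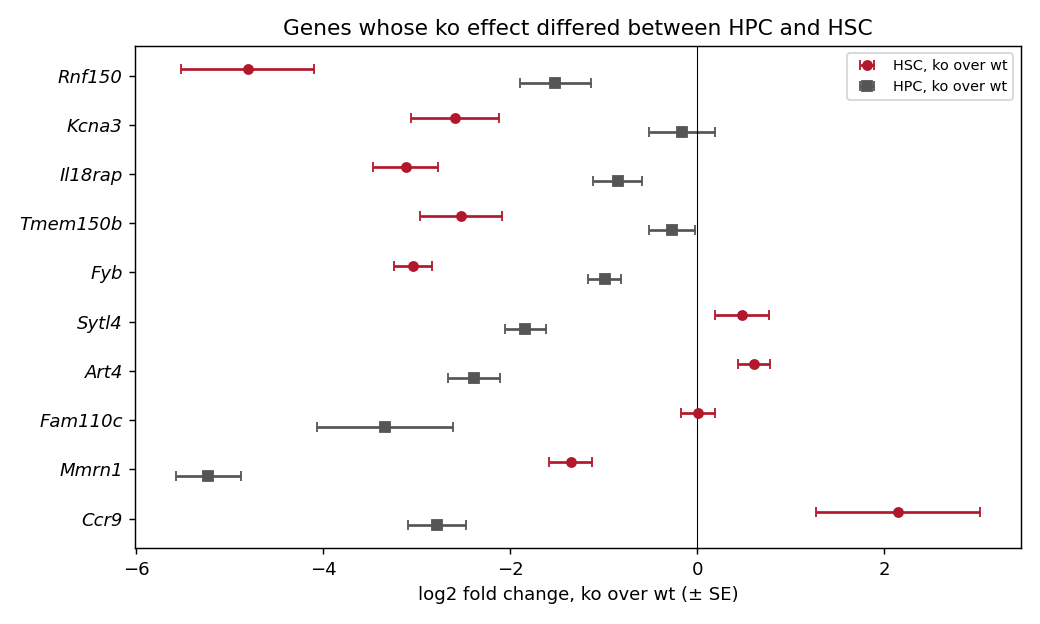
Log2 fold change of ko over wt, with its SE, in HSC (circles) and HPC (squares) for the 10 genes named by the test of the difference. Rnf150, Kcna3, Il18rap, Tmem150b and Fyb lie further below 0 in HSC, and Mmrn1 further below 0 in HPC. Sytl4, Art4, Fam110c and Ccr9 lie below 0 in HPC only, and Ccr9 was near the floor in HSC.

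The genes that rose in ko HSC were mostly genes that wt HSC use more than wt HPC. In wt mice given PBS, whose libraries took no part in the untreated comparison, 71 of the 79 higher genes (89.9%) had a higher mean in 4 HSC than in 3 HPC libraries, against 56.3% of all 13806 genes, and for 53 (67.1%) every HSC library stood above every HPC library, against 15.6% of all genes. Of the 167 lower genes 91 (54.5%) had a higher mean in wt HSC than in wt HPC, a share near that of all genes. Every HSC library stood above every HPC library for 34.1% of them and below for 29.3%, against 15.6% and 9.06% of all genes. The median of HSC minus HPC, on the scale of log2(CPM + 0.5), was 1.2 for the higher genes, 0.14 for the lower genes and 0.07 for all genes tested.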

How the data were processed

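Total RNA of sorted cells was sequenced, and the authors deposited 2 tables of whole-number counts of reads per gene, 1 per experiment, with no normalization. STAR 3.0.4, Subread and featureCounts 1.4.5 are named per the submitters' processing notes. Genome build and strand setting of the counting are unknown here, so genes that overlap or have near copies are uncertain. Coordinates come from GENCODE M21 (GRCm38), joined by gene ID. Every column matched a sample label.

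From the counts, genes were kept by filterByExpr (minimum count 10, total 15) and scaled by TMM. They were tested with edgeR 4.0.16 quasi-likelihood fits in R 4.3.3, with the untreated ko, het and wt libraries of a cell type in 1 fit. The PBS comparison was fitted on the ko and wt HSC libraries after PBS and after interleukin 1, with no het library. The difference between HPC and HSC was tested in the fit of all 48 libraries of the untreated experiment. P-values were adjusted by Benjamini-Hochberg over all genes tested, and those under 0.05 were called. CPM values are counts scaled to library size after TMM, and ± gives the SD over 4 libraries or, beside a log2 change, the SE. The labels do not say that replicates are separate animals, so p-values measure the spread between libraries. DESeq2 1.42.0 and limma 3.58.1 were run as alternatives, beside other filters, scalings, covariates and left-out libraries, and the test was tried on simulated data. Named genes are Kmt2c, up to 15 called protein-coding genes each way by fold (no overlap of libraries, 5 CPM or more in the higher group), the 5 most abundant each way, 5 long non-coding RNAs, up to 5 called members of each list (or, with none called, the 2 of smallest p), and 5 HPC minus HSC differences each way, without predicted genes. Members, lists and tests were chosen with earlier results of these data known.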

Additional observations from a re-analysis of the deposited data

Results flagged for a closer look

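In 23 of 294 groups of 4 libraries (147 named genes, ko and wt), 1 library stood apart from the other 3 by Dixon's criterion, which chance alone gives in about 1 group in 20. Among genes lower in ko, a ko library was highest for Phldb2 (0.337 CPM), Dlk1 (0.158 CPM), Plscr2 (2.82 CPM) and Cd53 (47.6 CPM) and lowest for P2ry10 (0.0527 CPM) and Lax1 (21.4 CPM). A wt library was highest for Cldn10 (5.7 CPM), Ptger3 (14.4 CPM), Tmem150b (3.41 CPM), Hemgn (66.3 CPM) and Itga2b (99.7 CPM) and lowest for Itgb2 (64.2 CPM). Among genes higher in ko, a ko library was lowest for Fut8 (173 CPM), and a wt library was highest for Ak1 (127 CPM) and Snhg18 (3.41 CPM) and lowest for Nr4a1 (6.43 CPM). Among genes not called, a ko library was highest for Casp1 (54.7 CPM) and mt-Nd2 (638 CPM) and lowest for Ikbkb (70.2 CPM) and Cpt1c (6.68 CPM), and a wt library was highest for Plk2 (16.8 CPM) and Ccr9 (0.53 CPM) and lowest for Kif23 (33.4 CPM).

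The effect of ko differed between the cell types by the test of the difference itself, HPC minus HSC. It was less negative in HPC for Rnf150 (3.27), Kcna3 (2.42), Il18rap (2.26), Tmem150b (2.26) and Fyb (2.05), on the log2 scale. It was lower in HPC for Ccr9 (-4.97), Mmrn1 (-3.88), Fam110c (-3.33), Art4 (-3) and Sytl4 (-2.33). Among the latter only Mmrn1 was below 0 in HSC (-1.35), and the HSC changes of Ccr9, Fam110c, Art4 and Sytl4 were 2.15, 0.01, 0.61 and 0.48, none called.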

How the results depend on the processing

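For ko against wt HSC, 246 called genes became 440 with DESeq2, 448 with limma voom and 105 with only ko replicates 2 and 3 (an alternative added after the data were seen), and 151 to 233 without 1 library. With the Y-linked covariate 188 genes were called (56 higher, 132 lower), and 158 of the 246 (64.2%) were among them. Only 65 of the 246 were called in all 17 alternatives, 12 of the 79 higher and 53 of the 167 lower. For ko against het, 45 became 117 with DESeq2, 23 with a Y-linked covariate and 29 to 58 without 1 library. For het against wt, 1 became 17 with DESeq2, 4 with voom, 2 with the Y-linked covariate, 3 with only those 2 groups in the fit, 0 with a replicate block and 1 to 4 without 1 library. After PBS, 132 became 375 with DESeq2, 246 with no filter, 61 with the Y-linked covariate, 217 without wt IL1 replicate 1 and 42 to 91 without 1 PBS library. For HPC, 146 became 291 with DESeq2, 286 with voom, 37 with the Y-linked covariate and 80 to 99 without 1 library. For the difference, 35 became 55 with DESeq2 and 25 to 40 without 1 library. The causes were not tested. With the replicate number as a block, ko against wt HSC gave 231 genes (74 higher, 157 lower). Deviations of same-numbered ko and wt libraries correlated between -0.128 and 0.39, highest for replicate 4, whose libraries also share high granulocyte and erythroid RNA. As not every pair was over 0.1 and the labels name no shared source, the numbers were not taken as pairs. Of 93 called named genes, 37 were called in all 17 alternatives, 56 were lost in 1 or more, and none turned direction.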
